A study of Caenorhabditis elegans with 6 samples.

Results

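Sperm genes were examined in whole adult Caenorhabditis elegans fed Escherichia coli strain purE or strain BW25113. The genes were taken by a rule on symbols, which was chosen with earlier results of these data known. It takes every gene starting with msp-, ssp-, sss-, nspd-, spe- or fer-, together with gsp-3 and gsp-4, and uses no expression value. This gave 45 of the 18811 genes in the tables, made up of 12 msp genes, 3 ssp genes, sss-1, nspd-8, 25 spe genes, fer-1 and the 2 gsp genes. The purE group held 3 libraries of worms placed on purE bacteria at larval stage 4, and the BW25113 group held 3 libraries of worms placed on BW25113 bacteria at the same stage. All worms were kept at 20 °C on nematode growth medium, and total RNA of whole, synchronized adults was sequenced. The labels do not state the worm strain, the sex, the adult age or how the purE strain was altered. They also do not state whether the replicates were separate cultures, so p-values measure only the spread between these libraries.

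In hermaphrodites, sperm are made in the last larval stage, before the germline switches to oocytes, and the sperm are stored in the spermatheca. Transcription of sperm genes stops before the meiotic divisions, and crawling sperm then run on proteins made earlier. Major sperm protein, encoded by the msp genes, forms the filaments that move the cell and is also released as the signal that starts oocyte maturation and sheath contraction. Genes named spe or fer are known for their part in sperm function, in organelle formation, activation, motility or fertilization.

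Sperm genes stood higher in the purE group, but in 2 of its 3 libraries far more than in the third. Summed over the 12 msp genes, normalized CPM (counts divided by the TMM-scaled total of the library) was 1041, 8437 and 4368 in purE 1, 2 and 3, against 611.5, 480.8 and 832.6 in BW25113 1, 2 and 3. The groups did not overlap. The sum in purE 2 was 13.2 times the BW25113 mean, that in purE 3 was 6.81 times, and that in purE 1 was 1.62 times. The margin of purE 1 over BW25113 3 was 1.25-fold, and the highest library held 17.6 times the lowest. Means were 4615 ± 3704 CPM in the purE group and 641.6 ± 177.8 CPM in the BW25113 group (SD, n = 3 each). In bulk RNA of whole worms, a larger number of sperm-making cells and more sperm RNA per cell cannot be told apart.

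No sperm gene, and no gene at all, was called between the groups at an adjusted p under 0.05 in edgeR's quasi-likelihood test with Benjamini-Hochberg adjustment (0 of 12144 genes tested, 0.0% higher and 0.0% lower). The smallest adjusted p of a sperm gene was 0.129. Of the 45 genes, 30 passed the low-count filter and were tested, and 27 of these 30 had a positive log2 fold change of purE over BW25113, against 51.6% of all genes tested. Of the 30, 24 were higher at an unadjusted p under 0.05, against 12.7% of all genes tested, and 0 were lower, against 3.81%. The median log2 fold change was 2.75 over the 30 tested genes and 0.03 over all genes tested. Fitted without the low-count filter, the median over all 45 genes was 2.69, with 42 of them positive. Of the 30, 5 reached the filter level in every purE library but not in every BW25113 library, so counts over the tested genes are given as a description. These 5 were ssp-36, spe-4, spe-8, spe-11 and spe-46, which were tested through the group in which they were high.

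Other fits called some of these genes. DESeq2 called 20 of the 30 higher at an adjusted p under 0.05, against 6.26% of all genes tested, and 0 lower, against 1.53%. These 20 were 11 msp genes, both gsp genes, sss-1, nspd-8 and 5 spe genes. Among the 5 spe genes, spe-4, spe-8 and spe-46 were tested through the group in which they were high. With purE 1 left out, edgeR called 28 of the 37 genes then tested at an adjusted p under 0.05, against 14.5% of all genes tested in that fit, in either direction. With any other library left out, edgeR called 0 of all genes, and so 0 sperm genes. With all libraries, limma-voom also called 0 of all genes.

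Read by library, the pattern was shared across most of the list. The purE values were all above the BW25113 values for 21 of the 30 tested genes, against 13.1% of all genes tested, and all below for 0, against 6.68%. Over all 45 genes, including those with few counts, 27 were separated in this way, but the share over all genes without the filter was not taken. Outside the msp genes, whose copies may share reads, 10 of 19 tested genes were separated in this way, against the same 13.1%. The order purE 2, then purE 3, then purE 1, then all BW25113 libraries held for 21 of the 30 tested genes, against 9.07% of all genes tested. That order includes the separation of the groups, so these are the same 21 genes. Within the BW25113 group, replicate 3 was the highest library for 24 of the 30, against 37.7% of all genes tested. Both orders were read from these same values and are given as a description. Library totals were near one another, at 21880627 to 22607939 estimated counts, and 3 counts were worth 0.110 to 0.160 normalized CPM. The first principal component of log2 CPM over all genes tested, with 69.3% of the variance, placed purE 2 at 120.2, purE 3 at 50.8 and purE 1 at -26.02, against -45.5, -59.8 and -39.7 for BW25113 1, 2 and 3. On that axis purE 1 lay nearer the BW25113 libraries than the other purE libraries.

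**Figure D1:**
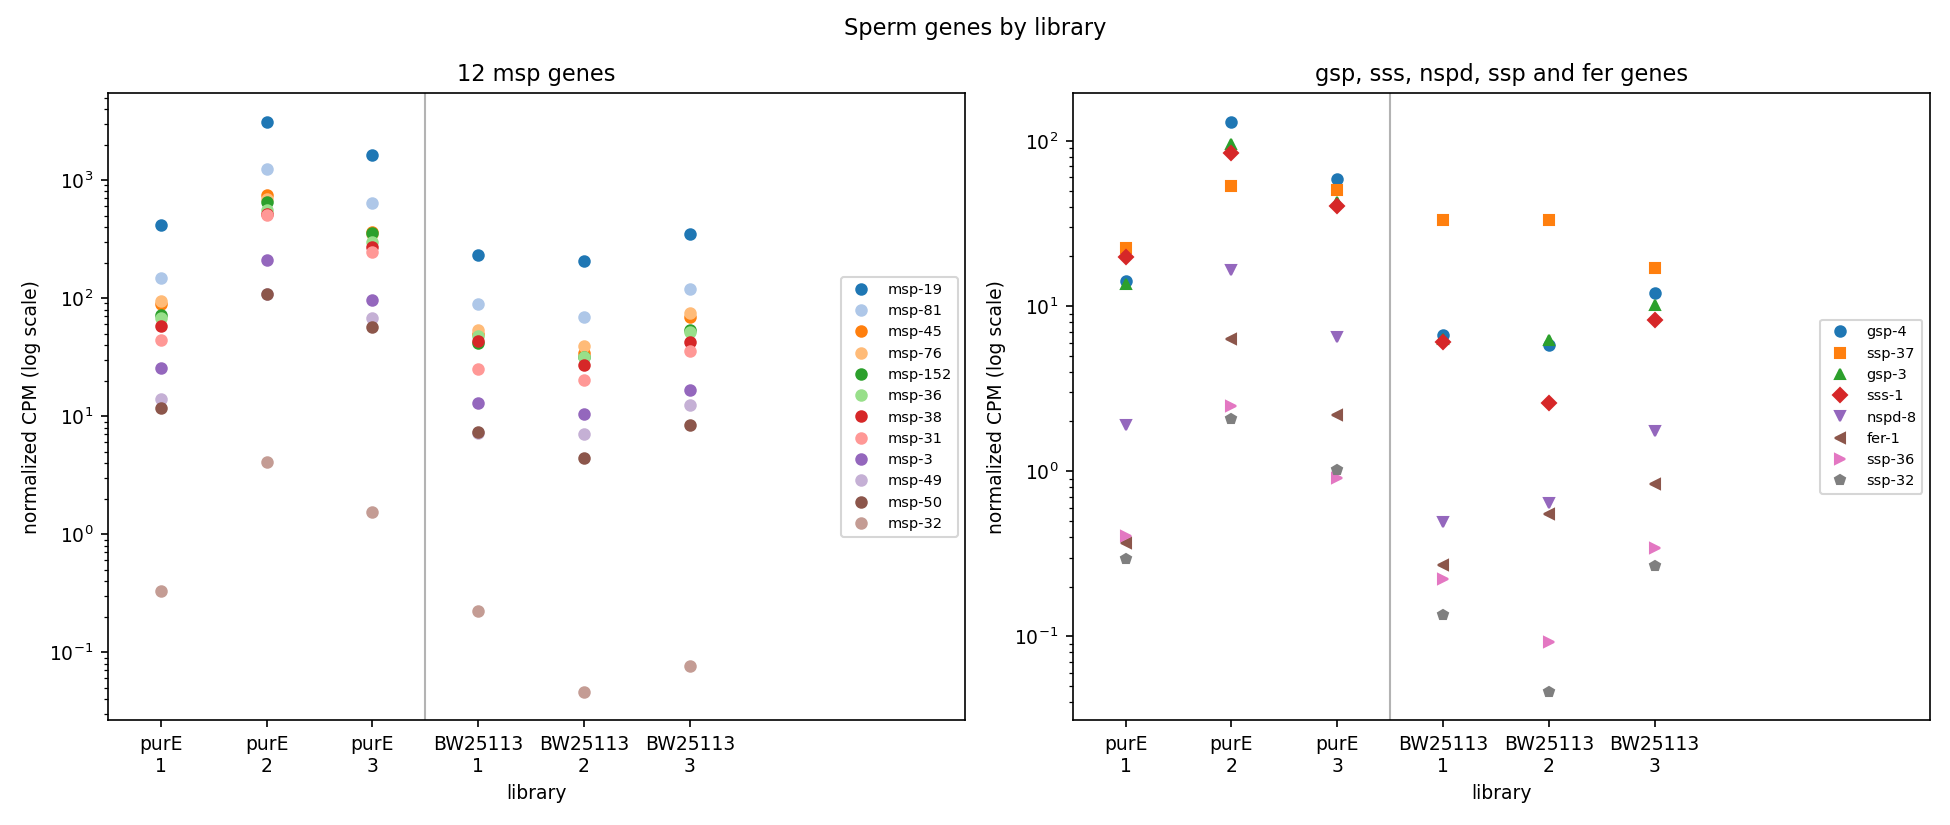
Normalized CPM on a log scale in each library, purE left of BW25113, for the 12 msp genes (left panel) and the gsp, sss, nspd, ssp and fer genes (right panel); each point is a gene in a library. Nearly all genes are highest in purE 2 and next in purE 3, as msp-19 is at 3104 and 1624 CPM, while ssp-37 is lowest in BW25113 3.

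The msp genes were the most abundant subfamily, and the 11 that were tested had log2 fold changes close to one another. RefSeq names 31 protein-coding msp genes, of which 12 have a row in the tables, and the other 19 are not analysed here. In build WBcel235, 7 of the 12 lie between 4785898 and 5200180 on chromosome II and 5 lie on chromosome IV. Each is a single run of coding bases with no intron in the model, 384 bases long in 11 of them and 360 in msp-32. None of the 72 msp values (12 genes in 6 libraries) was a whole number within 1e-06, against 144 of 150 spe values. Reads of near-identical copies may have been divided among them, so a level given to a single msp gene is uncertain. The sum over the 12 is less affected by division among them. Reads shared with the 19 genes without a row may still affect that sum, and how such reads were assigned is not stated.

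msp-19 (chromosome IV, 5260589 to 5260972, plus strand) held the largest share of the msp counts. It had 417.7, 3104 and 1624 CPM in purE 1, 2 and 3, against 234.0, 204.4 and 350.0 CPM in BW25113 1, 2 and 3. By FPKM, which divides by gene length and so allows genes to be compared, it ranked 151, 15 and 75 among all genes in the purE libraries, against 250, 267 and 163 in the BW25113 libraries. Its log2 fold change was 2.71 ± 0.64 (SE, edgeR adjusted p = 0.129), the smallest of the 11 tested msp genes, and 1.96 without purE 2. msp-81 had 146.7, 1238 and 639.9 CPM in the purE libraries, against 89.2, 69.7 and 119.1 CPM in the BW25113 libraries, a log2 fold change of 2.86 ± 0.67. Both genes showed the same order of libraries.

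The next most abundant msp genes by mean FPKM behaved alike. msp-45 had 88.3, 744.7 and 362.2 CPM in the purE libraries, against 49.2, 34.3 and 68.7 CPM in the BW25113 libraries. msp-76 had 94.7, 691.9 and 348.2 CPM in the purE libraries, against 53.9, 39.4 and 74.5 CPM in the BW25113 libraries. msp-152 had 72.6, 646.4 and 353.8 CPM in the purE libraries, against 41.9, 31.9 and 53.2 CPM in the BW25113 libraries. In each of the 3 genes, purE 1 was above the highest BW25113 library by less than purE 2 and purE 3 were.

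The largest msp fold change was that of msp-31, at 43.9, 501.4 and 244.0 CPM in the purE libraries against 25.3, 20.3 and 35.3 CPM in the BW25113 libraries. The log2 fold change was 3.29 ± 0.75 (SE, edgeR adjusted p = 0.129) and 2.42 without purE 2. The 11 tested msp genes thus spanned only 2.71 to 3.29 on the log2 scale, with a median of 2.91. Their standard errors, 0.64 to 0.75, are wider than that span. In all 12 msp genes the purE libraries were above the BW25113 libraries, and in the rarest, msp-32, values were 0.331, 4.12 and 1.55 CPM against 0.224, 0.0461 and 0.0763 CPM in the BW25113 libraries.

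The make-up of the msp counts varied little while their sum varied 17.6-fold. Reads of near-identical copies may have been divided among the msp genes, so their like shares and fold changes may come in part from that division. This was not tested. msp-19 made up between 36.8% and 42.5% of the msp counts of a library, msp-81 between 14.1% and 14.7%, and msp-76 between 7.97% and 9.09%. msp-31 ranged from 4.14% to 5.94%, with its 2 highest shares, 5.94% and 5.59%, in purE 2 and purE 3. Fitted as a single feature, the sum of the 12 genes had a log2 fold change of 2.85 ± 0.66 (SE). It was 2.08 without purE 2 and 3.19 without purE 1, and between 2.54 and 2.98 with any other library left out.

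gsp-3 and gsp-4 encode sperm protein phosphatases of the PP1 type that act in sperm formation and motility. gsp-3 (chromosome I, 4709259 to 4710712, minus strand) had 13.6, 96.3 and 42.8 CPM in the purE libraries, against 6.31, 6.23 and 10.2 CPM in the BW25113 libraries. Its log2 fold change was 2.75 ± 0.64 (SE, edgeR adjusted p = 0.129). gsp-4 (chromosome I, 3838290 to 3839673, minus strand) had 14.1, 130.0 and 58.5 CPM in the purE libraries, against 6.71, 5.81 and 11.9 CPM in the BW25113 libraries. For gsp-4 the log2 fold change was 3.05 ± 0.72. None of their 12 values was a whole number, so reads of these 2 related genes may also have been divided between them.

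The gsp genes kept step with the msp genes across libraries. Per 1000 msp counts there were 26.6, 26.8 and 23.2 gsp counts in the purE libraries, against 21.3, 25.04 and 26.6 in the BW25113 libraries. The ratio stayed between 21.3 and 26.8 and its groups overlapped, while the msp sum varied 17.6-fold.

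sss-1 and nspd-8, a member of a nematode-specific peptide family, also stood higher in the purE group. sss-1 (chromosome IV, 9892739 to 9893749, minus strand) had 19.7, 84.5 and 40.3 CPM in the purE libraries, against 6.04, 2.58 and 8.20 CPM in the BW25113 libraries. It showed the widest gap of purE 1 over the BW25113 mean among the tested sperm genes, at 3.51-fold, and its log2 fold change was 3.10 ± 0.61 (SE, edgeR adjusted p = 0.129). nspd-8 (chromosome I, 2551375 to 2551590, minus strand) had 1.91, 16.6 and 6.47 CPM in the purE libraries, against 0.492, 0.646 and 1.76 CPM in the BW25113 libraries. For nspd-8 the log2 fold change was 3.09 ± 0.83 (SE, edgeR adjusted p = 0.130). RefSeq names 10 protein-coding nspd genes, and nspd-8 was the only one with a row in the tables.

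**Figure D2:**
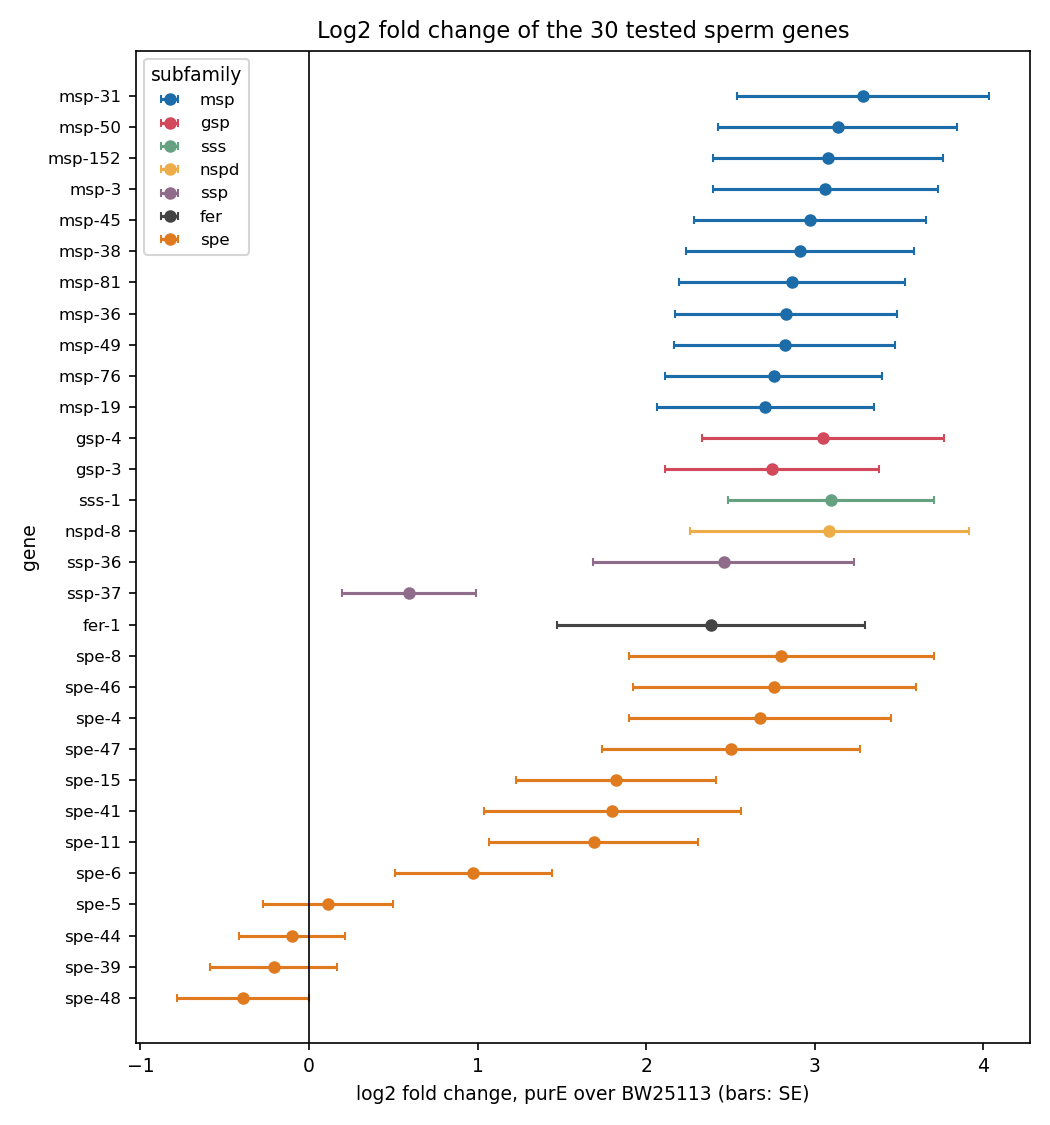
Log2 fold change of purE over BW25113 for each tested sperm gene, by subfamily, from edgeR; bars are standard errors. The msp genes fall between 2.71 and 3.29, while the spe genes reach from -0.39 for spe-48 to 2.80 for spe-8.

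The 3 ssp genes, named for a sperm-specific family with an MSP-like domain, differed among themselves. ssp-36 (chromosome IV, 9765637 to 9766350, minus strand) had 0.404, 2.48 and 0.909 CPM in the purE libraries, against 0.224, 0.0923 and 0.343 CPM in the BW25113 libraries, with a log2 fold change of 2.46 ± 0.78 (SE, edgeR adjusted p = 0.162). It reached the filter level in the purE libraries only, so it was tested through the group in which it was high. ssp-32 was too low to be tested, at 0.294, 2.06 and 1.02 CPM in the purE libraries against 0.134, 0.0461 and 0.267 CPM in the BW25113 libraries. It lies 1638 bases from sss-1 on chromosome IV. Both ssp genes had every purE library above every BW25113 library.

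ssp-37 (chromosome I, 12561040 to 12561560, minus strand) had another order of libraries. It had 22.5, 53.1 and 50.5 CPM in the purE libraries, against 33.3, 33.3 and 17.1 CPM in the BW25113 libraries. purE 1 lay inside the BW25113 range, and BW25113 3, the highest BW25113 library for most sperm genes, was the lowest here. Its log2 fold change was 0.59 ± 0.40 (SE, edgeR adjusted p = 0.479), and it ranged between 0.24 and 0.77 with a library left out. Per 1000 msp counts, ssp-37 had 21.6, 6.29 and 11.6 counts in the purE libraries, against 54.5, 69.3 and 20.5 in the BW25113 libraries.

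The 25 spe genes were rarer and more varied. Their summed CPM was 71.1, 108.5 and 71.1 in the purE libraries, against 45.8, 58.0 and 73.7 in the BW25113 libraries, so the groups overlapped. Only 12 of the 25 passed the low-count filter, and 4 of these reached its level in every purE library but not in every BW25113 library. Of these 12, 9 had a positive and 3 a negative log2 fold change, 7 were higher at an unadjusted p under 0.05, against 12.7% of all genes tested, and 5 had every purE library above every BW25113 library, against 13.1%. Their median log2 fold change was 1.74, and 1.04 without purE 2. In the 13 that were not tested, no rounded count exceeded 9 in a BW25113 library.

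The spe genes of sperm activation, the step that turns a round spermatid into a crawling sperm, are 8 in number, of which 3 were tested. spe-8, a non-receptor tyrosine kinase, had 0.588, 5.39 and 1.71 CPM in the purE libraries, against 0.0895, 0.369 and 0.610 CPM in the BW25113 libraries. spe-46 had 0.956, 8.02 and 2.09 CPM in the purE libraries, against 0.313, 0.369 and 0.915 CPM in the BW25113 libraries. spe-47, which carries an MSP domain, had 1.80, 12.8 and 3.26 CPM in the purE libraries, against 1.61, 0.923 and 0.610 CPM in the BW25113 libraries. The groups were separated for spe-46 and spe-47, while purE 1 lay just under BW25113 3 for spe-8.

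Log2 fold changes of these 3 genes were 2.80 ± 0.91 for spe-8, 2.76 ± 0.84 for spe-46 and 2.50 ± 0.77 for spe-47 (SE, edgeR adjusted p = 0.169, 0.150 and 0.153). Without purE 2 they were 1.64, 1.48 and 1.27. spe-8 and spe-46 reached the filter level in every purE library but in only 1 BW25113 library. Both were thus tested through the group in which they were high. The other 5 activation genes, spe-12, spe-19, spe-27, spe-29 and spe-43, stayed under the filter. The highest value among them was 2.06 CPM for spe-19 in purE 2, and the BW25113 libraries held at most 0.191 CPM, in spe-12. Without the filter, all 8 activation genes were positive, and their median was 2.71 on the log2 scale.

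Genes that build the fibrous bodies and membranous organelles, in which major sperm protein is packed during sperm formation, did not all follow the msp genes. spe-4, a presenilin-like protein, had 0.625, 4.43 and 1.71 CPM in the purE libraries, against 0.224, 0.231 and 0.572 CPM in the BW25113 libraries, with a log2 fold change of 2.67 ± 0.78 (SE, edgeR adjusted p = 0.141). It reached the filter level in every purE library but in only 1 BW25113 library. spe-6, a casein kinase I-like protein, had 2.06, 5.60 and 2.57 CPM in the purE libraries, against 1.84, 1.71 and 1.64 CPM in the BW25113 libraries, with a log2 fold change of 0.97 ± 0.47. Both were separated between the groups, spe-6 by a narrow margin. spe-10, a palmitoyltransferase, was not tested, at 0.257, 0.528 and 0.214 CPM in the purE libraries against 0.0895, 0.0923 and 0.153 CPM in the BW25113 libraries.

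Other genes of the same role did not show the pattern. spe-5, a subunit of the vacuolar proton pump, had 4.15, 2.43 and 2.62 CPM in the purE libraries, against 2.33, 3.28 and 2.94 CPM in the BW25113 libraries. spe-39, a vesicle trafficking protein expressed in many tissues, had 26.5, 12.4 and 18.3 CPM in the purE libraries, against 14.6, 21.1 and 30.5 CPM in the BW25113 libraries. Their log2 fold changes were 0.11 ± 0.38 and -0.21 ± 0.38, and each changed sign when single libraries were left out. In both genes purE 1, not purE 2, was the highest purE library.

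spe-44, a transcription factor that acts early in spermatogenesis, had 11.3, 10.2 and 10.4 CPM in the purE libraries, against 7.39, 14.2 and 12.6 CPM in the BW25113 libraries. The spe-44 log2 fold change was -0.10 ± 0.32 (SE, edgeR adjusted p = 0.867). spe-48, for which no role is given here, had 15.2, 5.28 and 9.20 CPM in the purE libraries, against 12.9, 11.6 and 14.6 CPM in the BW25113 libraries, with a log2 fold change of -0.39 ± 0.39. It was the only sperm gene for which purE 2 and purE 3 were both below all other libraries.

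**Figure D3:**
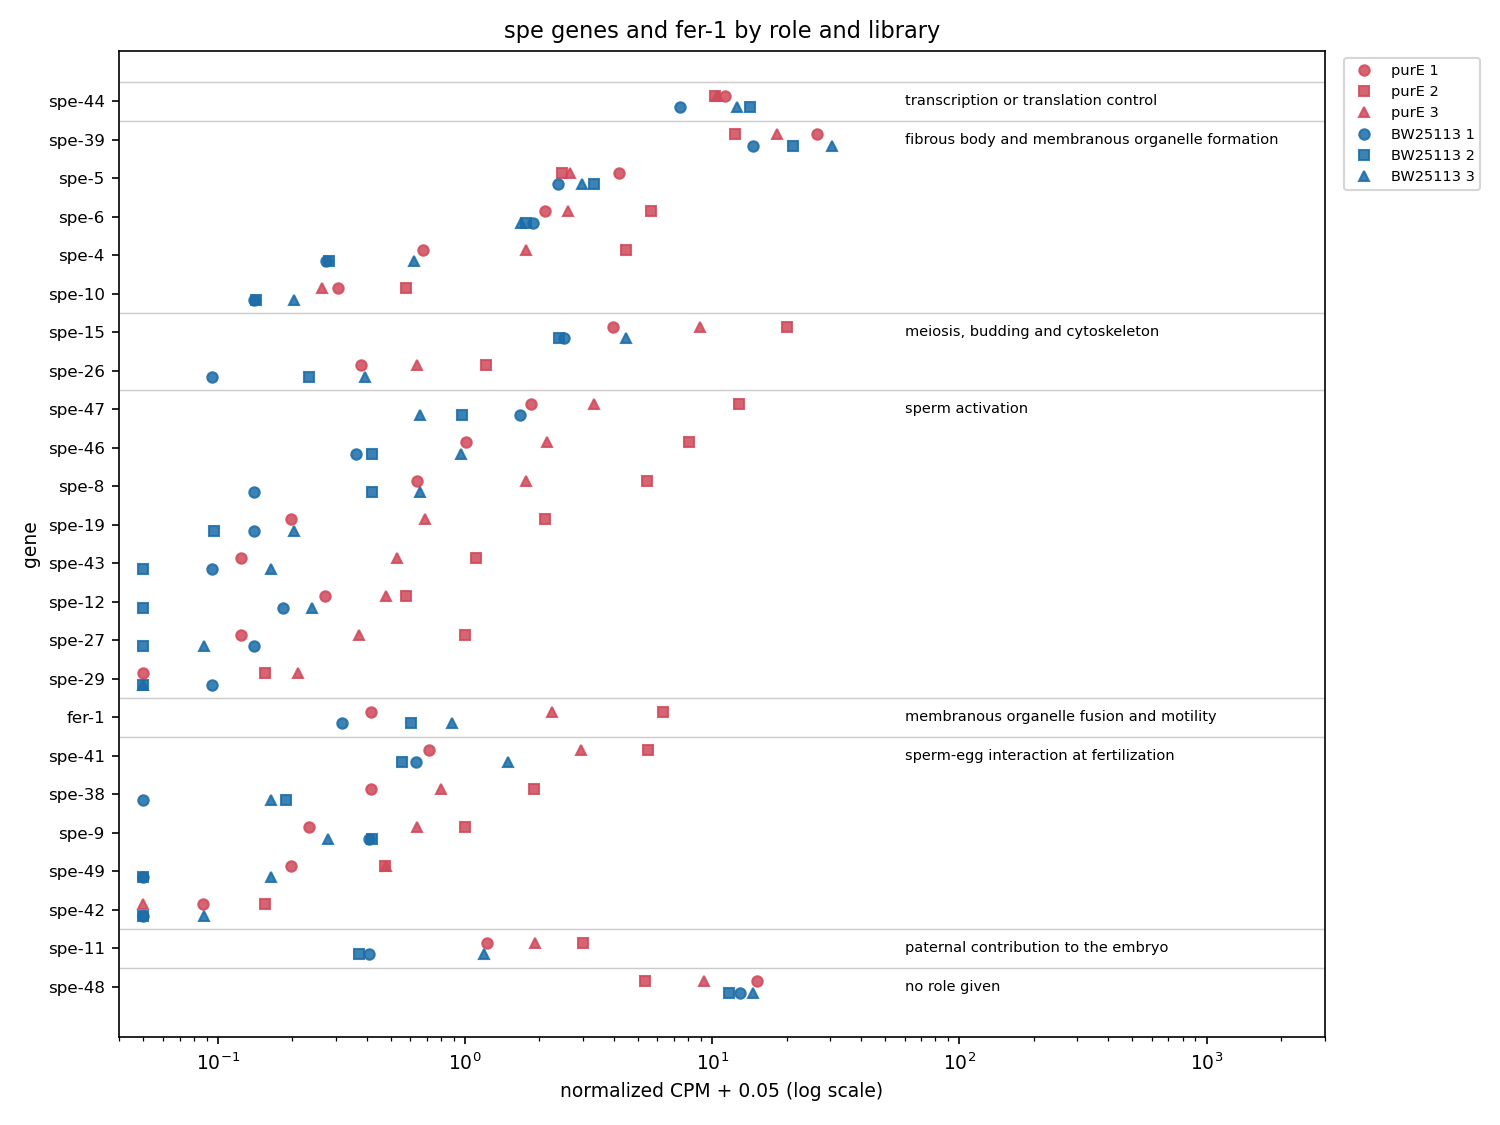
Normalized CPM plus an offset of 0.05, on a log scale, of spe genes and fer-1, 1 point per library, grouped by role, with the purE points of a gene drawn above its BW25113 points. spe-8, spe-46, spe-4 and spe-15 show purE 2 highest and purE 3 next, while spe-5, spe-39, spe-44 and spe-48 show no such order.

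Of the 2 genes of meiosis, budding and cytoskeleton, spe-15, a myosin VI, was tested. It had 3.93, 20.0 and 8.88 CPM in the purE libraries, against 2.46, 2.35 and 4.43 CPM in the BW25113 libraries, and a log2 fold change of 1.82 ± 0.59 (SE, edgeR adjusted p = 0.170). purE 1 lay below BW25113 3. spe-26, a kelch-like protein, was not tested, at 0.331, 1.16 and 0.588 CPM in the purE libraries against 0.0448, 0.185 and 0.343 CPM in the BW25113 libraries.

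fer-1, the ferlin needed for membranous organelle fusion, had 0.368, 6.28 and 2.19 CPM in the purE libraries, against 0.269, 0.554 and 0.839 CPM in the BW25113 libraries. The groups overlapped, since purE 1 lay under BW25113 2 and BW25113 3. The fer-1 log2 fold change was 2.38 ± 0.91 (SE, edgeR adjusted p = 0.237) and 1.17 without purE 2.

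Sperm surface genes that act when sperm meet the egg were close to the detection limit. spe-41, a TRPC channel, was the only one to be tested, with 0.662, 5.44 and 2.89 CPM in the purE libraries against 0.582, 0.507 and 1.45 CPM in the BW25113 libraries. Its log2 fold change was 1.80 ± 0.76 (SE, edgeR adjusted p = 0.287), and purE 1 lay inside the BW25113 range. spe-38, a tetraspan membrane protein, had 0.368, 1.85 and 0.749 CPM in the purE libraries, against 0, 0.138 and 0.114 CPM in the BW25113 libraries. spe-9, spe-42 and spe-49 had at most 0.950 CPM, reached by spe-9 in purE 2. spe-11, a paternal protein needed by the embryo, had 1.18, 2.96 and 1.87 CPM in the purE libraries, against 0.358, 0.323 and 1.14 CPM in the BW25113 libraries, with a log2 fold change of 1.69 ± 0.62. It reached the filter level in every purE library but in only 1 BW25113 library.

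Relative to the msp sum, the spe genes parted into sets, a split chosen after the values were seen. spe-5, spe-39, spe-44 and spe-48 together had 57.1, 30.3 and 40.5 CPM in the purE libraries, against 37.1, 50.2 and 60.6 CPM in the BW25113 libraries. The other 21 spe genes together had 13.9, 78.3 and 30.6 CPM in the purE libraries, against 8.73, 7.80 and 13.1 CPM in the BW25113 libraries. Per 1000 msp counts, these 21 genes had 13.4, 9.28 and 7.004 counts in the purE libraries, against 14.3, 16.2 and 15.8 in the BW25113 libraries. The 4 genes had 54.9, 3.59 and 9.27 per 1000 msp counts in the purE libraries, against 60.7, 104.4 and 72.8 in the BW25113 libraries. The 4 genes thus held most of the summed spe CPM in every library except purE 2.

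**Figure D4:**
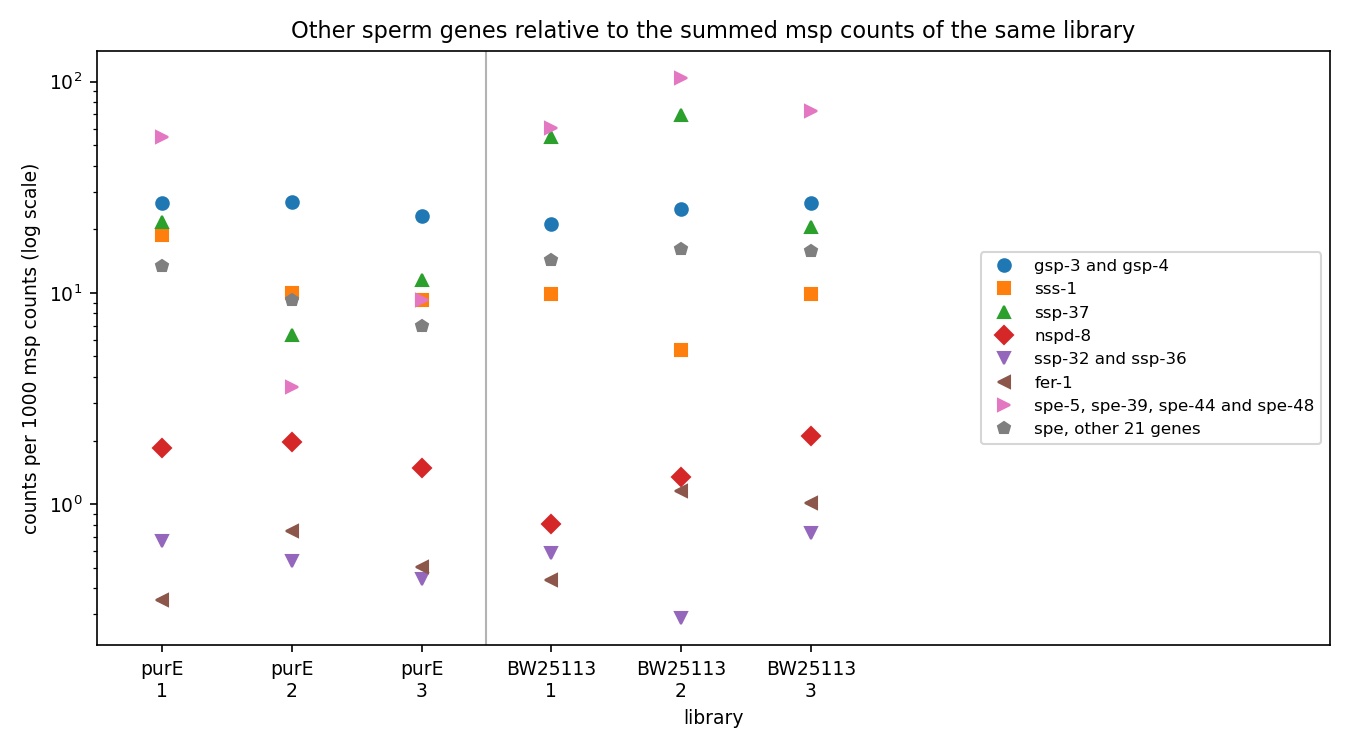
Counts of each set of sperm genes per 1000 msp counts in each library, on a log scale, with purE left of BW25113. The gsp ratio stays between 21.3 and 26.8, while the ratio of spe-5, spe-39, spe-44 and spe-48 lies between 3.59 and 104.4.

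Sperm genes outside these families gave values of the same size. Of 19 symbols listed, 14 could be matched to a row and 12 were tested, all of them positive, and their median on the log2 scale was 2.81. At an unadjusted p under 0.05, 11 of the 12 were higher, against 12.7% of all genes tested, and DESeq2 called 11, against 6.26%. Of the 12, 3 reached the filter level in every purE library but not in every BW25113 library. spch-3, a sperm chromatin protein, had 38.01, 479.6 and 182.9 CPM in the purE libraries, against 16.1, 14.2 and 33.5 CPM in the BW25113 libraries, with a log2 fold change of 3.46 ± 0.82 (SE, edgeR adjusted p = 0.129). The exception was zipt-7.1, a zinc transporter that acts in sperm activation, at 0.06 ± 0.26. Of 10 further spe and ssp genes held in the tables under another symbol, a list added after the values were seen, 5 were tested and 4 were higher at an unadjusted p under 0.05, against 12.7% of all genes tested. Of these 5, 2 reached the filter level in every purE library but not in every BW25113 library. Among them spe-18, listed as F32A11.3, had 11.9, 162.5 and 62.8 CPM in the purE libraries, against 6.27, 5.49 and 11.4 CPM in the BW25113 libraries.

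Genes that set germ cells on the sperm or oocyte path did not show the values of the sperm genes. Of 17 tested, 3 were positive and 14 negative, the median being -0.24 on the log2 scale, and under an unadjusted p of 0.05 there was 1 higher gene, against 12.7% of all genes tested, and 1 lower gene, against 3.81%. The higher gene was fog-3, which commits germ cells to sperm, at 0.404, 2.27 and 0.695 CPM in the purE libraries against 0.134, 0.138 and 0.267 CPM in the BW25113 libraries. It reached the filter level in the purE libraries only, so it was tested through the group in which it was high. The fog-3 log2 fold change was 2.57 ± 0.75 (SE, edgeR adjusted p = 0.142). The lower gene was elt-1, a GATA factor, at 3.24, 3.06 and 2.94 CPM in the purE libraries against 6.62, 4.71 and 4.69 CPM in the BW25113 libraries, with a log2 fold change of -0.79 ± 0.34 (SE, edgeR adjusted p = 0.287).

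Genes on the receiving side of sperm were mostly negative. Of 12 genes of the oocyte and sheath response to major sperm protein, 3 were positive and 9 negative, with a median log2 fold change of -0.14. vab-1, an Eph receptor that binds major sperm protein, had 32.9, 27.4 and 34.7 CPM in the purE libraries, against 42.2, 57.3 and 62.3 CPM in the BW25113 libraries, a log2 fold change of -0.77 ± 0.25 (SE, edgeR adjusted p = 0.167). kin-1, the catalytic subunit of protein kinase A, was positive at 0.85 ± 0.36, with 147.3 CPM in purE 2. All 7 egg-side genes of fertilization and egg activation were negative, with a median of -0.30, and mbk-2, a kinase of the oocyte-to-embryo transition, was lowest in p at -0.61 ± 0.22 (SE, edgeR adjusted p = 0.210).

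Markers of other cells and stages also differed between libraries, and their part in the sperm gene values was not tested. Summed over 14 genes of moulting and late larval cuticle, CPM was 91.9, 4718 and 1224 in the purE libraries, against 211.0, 126.8 and 162.3 in the BW25113 libraries. Most of the sum in purE 2 and purE 3 came from dpy-13 alone, at 3799 and 1039 CPM. Of the 13 tested genes of this list, 10 were positive, against 51.6% of all genes tested, and 3 were negative, namely noah-1, noah-2 and fbn-1. None of the 13 had every purE library above every BW25113 library, against 13.1% of all genes tested. The 7 adult soma markers, mostly vitellogenins, summed to 57820, 32160 and 62720 CPM in the purE libraries, against 61260, 77880 and 78070 CPM in the BW25113 libraries. The 11 oocyte markers, all negative, summed to 13410, 8675 and 14890 CPM in the purE libraries, against 17860, 20420 and 14840 CPM in the BW25113 libraries. The 8 early embryo markers with a row summed to 2.68, 1.11 and 3.21 CPM in the purE libraries, against 8.10, 6.04 and 5.49 CPM in the BW25113 libraries.

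The summed markers of males were also highest in purE 2, though not every single marker was. Their part in the sperm gene values was not tested. The 13 markers of males and seminal fluid summed to 1.32, 3.85 and 1.07 CPM in the purE libraries, against 0.492, 0.738 and 0.839 CPM in the BW25113 libraries, and lov-1, cwp-1, cwp-2 and plg-1 were at 0 in all 6 libraries. mab-3, a male sexual regulator, was the only one tested, with a log2 fold change of 2.13 ± 0.72 (SE, edgeR adjusted p = 0.187), and it reached the filter level in the purE libraries only. In purE 2 it had 2.27 CPM, the larger part of the sum there. cwp-4 and swm-1 were highest in purE 1, at 0.331 CPM each. The 13 germline and meiosis markers summed to 799.7, 639.7 and 774.1 CPM in the purE libraries, against 626.6, 827.2 and 939.7 CPM in the BW25113 libraries. The 6 markers of spermatheca and sheath were all positive, against 51.6% of all genes tested, with a median log2 fold change of 0.48. They ranged from 0.13 for ipp-5 to 2.52 ± 0.75 for sth-1, for which purE 2 was the highest library. Their sums overlapped between groups, at 313.1, 371.5 and 337.4 CPM in the purE libraries against 247.4, 300.3 and 346.1 CPM in the BW25113 libraries.

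By position, none of the 45 genes lay on the X chromosome, which holds 13.8% of the 18799 genes with a position. Chromosome I held 35.6% of the sperm genes and 14.7% of all genes, and chromosome IV held 33.3% and 16.2%. Chromosome V held 11.1% of the sperm genes and 24.3% of all genes. These shares describe the tables, since many msp, nspd and ssp copies have no row in them.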

How the data were processed

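RNA of 6 libraries (3 purE, 3 BW25113) was analysed, grouped by the labels. Per the file headers, the deposited values are estimated counts per gene and FPKM, which the authors scaled to gene length and library size. The submitters' processing notes name WBcel235 as the build. Which aligner and counter were used, and whether strand was used, is not given in the sources used here. Between 91.0% and 92.2% of the count values in a library were whole numbers. Estimated counts were rounded to whole numbers, and the tables held 18811 genes.

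Genes were kept with edgeR's default expression filter, which left 12144, and scaled with TMM factors of 0.844 to 1.20. Groups were compared in edgeR 4.0.16 (R 4.3.3) by its quasi-likelihood test, with two-sided p-values adjusted by Benjamini-Hochberg over the 12144 genes and called under 0.05. DESeq2 1.42.0, limma-voom (limma 3.58.1), limma on log2(FPKM + 1) and log2(FPKM + 0.1) of genes with at least 1 FPKM in 3 libraries, other filters and scalings, a replicate block and each library left out were alternatives. The fits were tested on simulated data. Counts of sperm genes were read against the share of all genes tested, and no set test was made. Positions came from RefSeq for 18799 genes, matched by gene identifier, and strand and exon length from an Ensembl annotation of the same build.

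The genes and lists were chosen with earlier results of these data known. The text names every ssp, sss, nspd, fer and gsp gene, the 5 msp genes of highest mean FPKM, the msp and spe genes of largest and smallest log2 fold change, every spe gene with an assigned role, apart from some that are not reported here, and from each list the gene of smallest p per direction, for the lists of cell markers only in part. Genes named beyond this were chosen after their values were seen.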

Additional observations from a re-analysis of the deposited data

How the results depend on the processing

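All sperm genes together, and the msp genes, kept a positive median log2 fold change in every alternative run, at 1.77 to 3.09 for all and 2.09 to 3.29 for msp. What depended on the processing was the number called at an adjusted p under 0.05. Of 12144 genes tested, edgeR called 0 and DESeq2 946. With each library left out, edgeR called 0 to 1852, the highest without purE 1, of 12811 tested. Leaving libraries out of DESeq2 was an alternative added after the data were seen. It called 2574 of 12811, 259 of 12370 and 519 of 12514 genes without purE 1, 2 and 3. Without BW25113 1, 2 and 3 it called 365 of 12717, 303 of 12820 and 992 of 12833. Of 30 sperm genes tested, edgeR called 0 and DESeq2 20. With a library left out, edgeR called 0 to 28 sperm genes, the highest without purE 1, of 37 tested. DESeq2 called 28 of 37, 14 of 30 and 17 of 30 without purE 1, 2 and 3. Without BW25113 1, 2 and 3 it called 16, 14 and 21 sperm genes, each of 37 tested. Without purE 1, 33 of the 37 sperm genes then tested had every purE library above every BW25113 library, against 21 of 30 with all libraries. Fewer libraries are more easily separated, and the share over all genes was not taken for that set. The causes were not tested, beyond the smaller number of libraries.

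The median over all tested sperm genes was 1.81 without purE 2 in edgeR and 1.77 in DESeq2. The spe median was 1.74, between 1.04 and 2.34 with a library left out, lowest without purE 2 and highest without BW25113 3, and 0.99 and 2.36 in DESeq2 without these libraries. It was 0.49 on log2(FPKM + 1) and 0.69 on log2(FPKM + 0.1), over the 9 spe genes then tested. On these scales the median of all genes was -0.11 with a pseudocount of 1 and -0.13 with 0.1.

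Single genes near 0 changed sign. With a library left out, spe-39 ranged between -0.67 and 0.028, highest without purE 2, and was at 0.051 in DESeq2 without BW25113 3. spe-5 ranged between -0.30 without purE 1 and 0.26 without purE 2, was at -0.29 in DESeq2 without purE 1 and -0.073 without BW25113 1, and was at -0.0036 on log2(FPKM + 1) and -0.032 on log2(FPKM + 0.1).

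With the replicate number as a block, 2 genes were called and 0 sperm genes. Deviations of same-numbered libraries correlated at -0.14, -0.17 and 0.14, so the numbers were not taken to pair libraries.

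Most spe genes were too low to be tested, since the filter asked for 0.447 CPM before TMM scaling in at least 3 libraries. That level is 10 counts at the median library total, while 3 counts were worth 0.110 to 0.160 normalized CPM. With 3 libraries a group and a biological coefficient of variation of 0.407, the purE spread limits every mean.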
